A study of Mus musculus with 9 samples.

Results

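Glutathione, peroxiredoxins, thioredoxins and the enzymes controlled by the transcription factor NRF2 remove peroxides, superoxide and reactive lipid products from cells. The genes described here were picked by symbol: the glutathione transferase, microsomal glutathione transferase, glutathione peroxidase and peroxiredoxin families, together with Nnt, Gclc, Gclm, Gss, Gsr, Nqo1, Hmox1, Txn1, Txn2, Txnrd1, Txnrd2, Srxn1, Sod1, Sod2, Sod3, Cat, Nfe2l1, Nfe2l2 and Keap1. The rule matched 59 of the 24015 gene rows. It reads symbols only, but it was chosen with earlier results of these data known. Their RNA was measured by poly(A) sequencing in adipocytes differentiated in culture from the stromal vascular cells of mouse inguinal fat, the subcutaneous depot whose precursors can become beige, heat-producing fat cells. The groups were F1 offspring of the 2 strains, 129X1/SvJ mice (129, named as obesity-resistant by the series) and C57BL/6J mice (B6, named as obesity-prone), with 3 libraries each. Every culture was sampled at day 7. At confluence all cells had received 0.5 mM isobutylmethylxanthine, 125 nM indomethacin, 1 μM dexamethasone, 850 nM insulin, 1 nM T3 and 1 μM rosiglitazone in 10% serum for 48 hours, and afterwards insulin, T3 and rosiglitazone at those doses. The labels give neither the mother's strain of the F1 nor the age or sex of the mice. Since separate mice or cultures within a group are not stated either, p-values cover the spread among these 9 libraries, which may be technical.

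As background, glutathione is made from cysteine by glutamate-cysteine ligase (the catalytic subunit Gclc and the modifier Gclm) and by glutathione synthetase (Gss), and oxidised glutathione is reduced again by Gsr at the cost of NADPH. In mitochondria part of that NADPH comes from the transhydrogenase Nnt. Glutathione peroxidases and peroxiredoxins reduce peroxides, and glutathione transferases couple glutathione to reactive lipids and foreign compounds. NRF2 (the gene Nfe2l2) is held in the cytoplasm and marked for degradation by KEAP1. Oxidants and electrophiles release it, and it then binds antioxidant response elements beside genes such as Nqo1, Hmox1, Gclm and Txnrd1. Its control is thus largely at the level of the protein, which RNA does not show. C57BL/6J mice are known to carry a deletion of several exons of Nnt, so the comparison of these strains includes a known defect of mitochondrial NADPH supply.

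The libraries held 39686986 to 53410947 assigned reads in F1, 23710908 to 28473083 in 129 and 19130022 to 26931438 in B6, so all F1 libraries were deeper than all parental ones. Of the 59 genes, 49 reached at least 1 RPKM (reads per kilobase of exon per 1000000 assigned reads) in at least 3 of the 9 libraries and were tested, 48 of them with at least 1 RPKM in every library. The other 10 were Gpx2, Gpx2-ps1, Gpx5, Gpx6, Gsta1, Gsta2, Gstm3, Gstm6, Gstt4 and Prdx6b. Gpx2 and Gpx5 had 0 reads in all libraries, and among the 10 Gstm6 reached the highest value, 0.58 RPKM in a B6 library. As a check of the cell type, all 10 mature adipocyte markers and all 8 thermogenic markers passed the filter. The summed RPKM of the mature adipocyte markers was 36920 to 39350 in F1, 32730 to 35280 in 129 and 29150 to 33220 in B6. That of the thermogenic markers was 548.6 to 584 in F1, 439 to 474.1 in 129 and 384.6 to 402.2 in B6. Cox7a1 was its largest part, at 313.5 to 351.9 RPKM in F1, 186.6 to 222.3 in 129 and 187.1 to 209.8 in B6. Ucp1 was highest in 129, at 50.62 to 54.2 RPKM in F1, 60.53 to 64.39 in 129 and 9.389 to 10.75 in B6. In F1 against 129, 4 of the 8 thermogenic markers were higher and 3 lower. None of 6 lymphocyte and none of 5 red blood cell markers reached 1 RPKM in any library. Of 10 macrophage markers, however, 9 passed the filter, with Lyz2 at 13.84 to 37.87 RPKM over the libraries. Only Ptprc, the marker common to blood cells, stayed below 1 RPKM in all libraries.

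The DNA upstream of these genes can be shown for 49 of the 59, from the RefSeq promoter table on GRCm38.p6 (250 bases before to 50 after each start). It held no promoter for Gclc, Gpx2-ps1, Gsr, Gsta4, Gstt2, Hmox1, Nnt, Prdx6, Prdx6b and Sod3. The core antioxidant response element was searched as TGACNNNGC on both strands. It was present in 10 of the 67 promoters of these genes, or 14.9%, against 4071 of all 32851 promoters of the same length, or 12.4%. The 10 genes were Gclm, Gsta3, Gstm5, Gstm7, Mgst1, Nfe2l2, Prdx1, Sod1, Srxn1 and Txnrd1. Of these, 5 were lower and 0 higher in 129 against B6, as described below, and their promoters are shown for that reason, a choice made after the values were seen. Capitals mark the match, the letters run 5′ to 3′ on the gene's strand, and positions count from the gene's start. The promoters are those of Gclm (chr3:122245307-122245606, plus strand, match at -134), Gsta3 (chr1:21240335-21240634, plus strand, match at -121), Gstm7 (chr3:107931565-107931864, minus strand, match at -129), Nfe2l2 (chr2:75704614-75704913, minus strand, match at -240) and Txnrd1 (chr10:82858956-82859255, plus strand, match at -92).
Gclm: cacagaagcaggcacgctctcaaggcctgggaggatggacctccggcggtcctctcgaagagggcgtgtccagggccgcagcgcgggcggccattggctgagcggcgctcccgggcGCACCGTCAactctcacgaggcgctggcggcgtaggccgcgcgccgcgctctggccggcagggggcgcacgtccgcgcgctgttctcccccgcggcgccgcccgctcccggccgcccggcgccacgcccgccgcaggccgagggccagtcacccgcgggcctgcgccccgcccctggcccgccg
Gsta3: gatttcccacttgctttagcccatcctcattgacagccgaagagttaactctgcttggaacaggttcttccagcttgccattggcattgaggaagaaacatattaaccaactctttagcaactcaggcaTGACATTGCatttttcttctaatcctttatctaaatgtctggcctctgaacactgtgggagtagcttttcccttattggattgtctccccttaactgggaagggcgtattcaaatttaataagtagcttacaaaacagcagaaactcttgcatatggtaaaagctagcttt
Gstm7: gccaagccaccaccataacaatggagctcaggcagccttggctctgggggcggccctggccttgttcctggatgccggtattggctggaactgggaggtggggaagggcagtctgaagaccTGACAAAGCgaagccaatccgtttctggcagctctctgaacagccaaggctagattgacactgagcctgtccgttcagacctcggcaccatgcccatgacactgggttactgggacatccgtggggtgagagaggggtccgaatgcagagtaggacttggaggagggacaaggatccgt
Nfe2l2: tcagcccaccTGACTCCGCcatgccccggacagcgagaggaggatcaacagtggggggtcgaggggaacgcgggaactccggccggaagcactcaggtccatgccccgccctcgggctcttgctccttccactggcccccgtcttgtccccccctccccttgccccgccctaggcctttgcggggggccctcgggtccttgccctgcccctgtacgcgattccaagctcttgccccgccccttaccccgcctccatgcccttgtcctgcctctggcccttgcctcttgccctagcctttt
Txnrd1: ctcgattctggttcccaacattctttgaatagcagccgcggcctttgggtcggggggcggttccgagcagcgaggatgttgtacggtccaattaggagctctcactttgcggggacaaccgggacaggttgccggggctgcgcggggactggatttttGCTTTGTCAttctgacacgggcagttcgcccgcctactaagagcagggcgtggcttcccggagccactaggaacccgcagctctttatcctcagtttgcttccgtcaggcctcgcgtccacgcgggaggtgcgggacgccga
In Gclm and Txnrd1 the match lies on the opposite strand, so that its letters read GCNNNGTCA as printed. In Nfe2l2 it lies near the upstream end of the window. A match describes the letters only and is not a shown binding site, and a window without one says nothing about NRF2 at that gene.

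Among the 49 tested genes, the most abundant were Sod1 and Mgst1, the 45th and 48th most abundant of all gene rows, at mean levels of 885 and 871 RPKM over the 9 libraries. Gpx3, Mgst3, Prdx1, Gpx4 and Prdx5 followed, and Nqo1, Gstm7, Nnt and Gsto2 were the least abundant. Together the 59 genes took 0.867% to 0.941% of the reads in F1, 0.915% to 0.957% in 129 and 0.848% to 0.916% in B6. The summed share thus overlapped between the groups, while single genes moved in opposite directions.

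**Figure D1:**
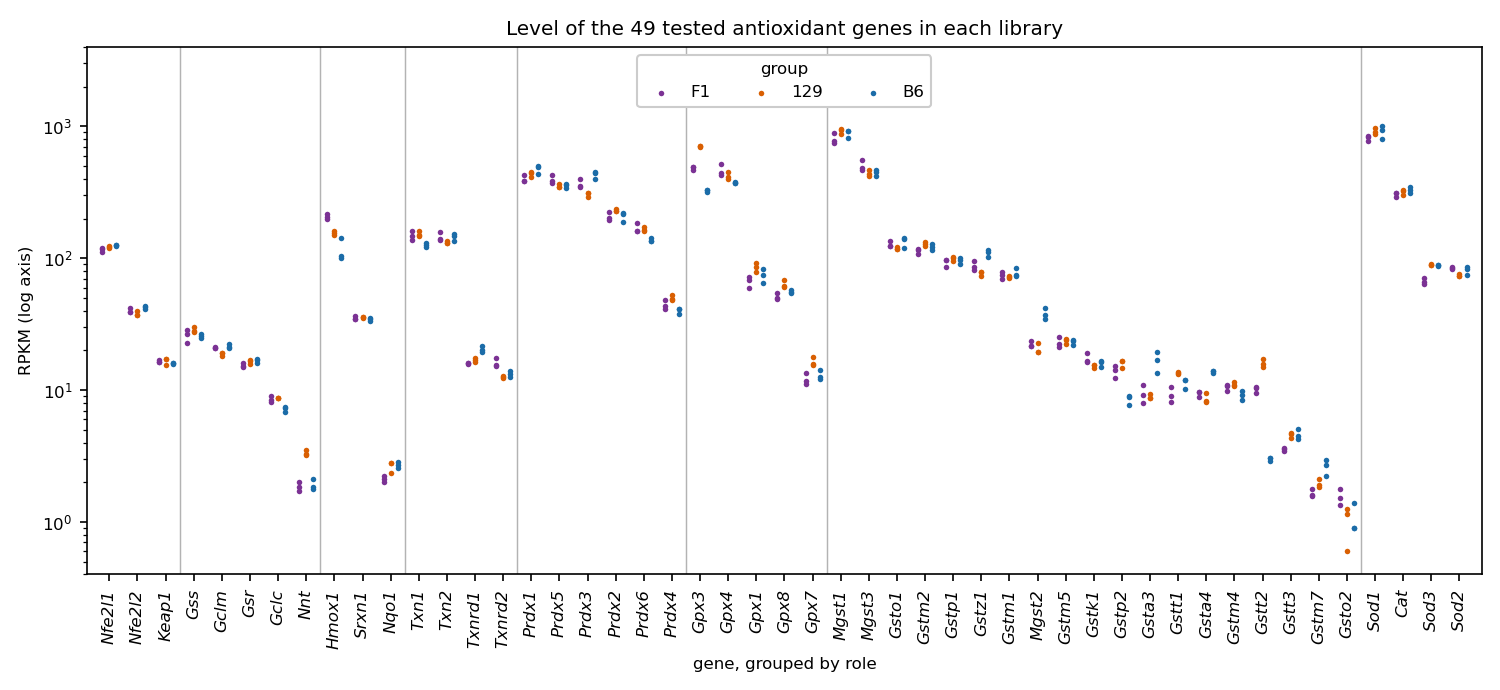
RPKM of the 49 tested genes on a log axis, with 1 point for each library (F1, then 129, then B6) and genes ordered by role and level. The levels span from near 1 RPKM for Gsto2 to means of 885 RPKM for Sod1 and 871 RPKM for Mgst1, and the 3 colours separate clearly for Gpx3 and Gstt2.

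Differences were tested with limma on log2(RPKM + 1) across all 11542 genes that passed the filter, with an adjusted p under 0.05 as the threshold, and fold changes on that scale understate the change of genes near 1 RPKM. In 129 against B6, 13 of the 49 genes were higher, 9 were lower and 27 did not pass. The share called, 44.9%, stood beside 37.5% of all tested genes (15.9% higher and 21.7% lower). In F1 against B6, 10 were higher and 13 lower, or 46.9%, beside 31.2% of all tested genes (11% higher and 20.2% lower). In F1 against 129, 5 were higher and 11 lower, or 32.7%, beside 27.7% (12% higher and 15.7% lower). Calls of 0.5 or more in size on the log2 scale numbered 8, 7 and 4 of the 49 in these comparisons, beside 9.39%, 5.61% and 4.64% of all tested genes. The median log2 fold change of the 49 genes was 0.00 in 129 against B6, -0.04 in F1 against B6 and -0.06 in F1 against 129, beside -0.03, -0.04 and -0.01 over all tested genes, so the genes did not move as a block. Their median absolute log2 fold change was 0.16 in each of these comparisons, beside 0.12, 0.11 and 0.10. When the values were rescaled by median-of-ratios size factors, which moved the median of all genes by 0.01 to 0.04, the split for F1 against B6 became 12 higher and 10 lower. Comparisons that share a group share its libraries. Calls below that ended under another setting, apart from a block by replicate number, are marked, with the log2 fold change in that setting in brackets where a library was left out. Besides rescaling, the settings were a smaller pseudocount (0.1), no filter on low values, a higher filter (mean of at least 3 RPKM), limma-voom on recovered reads and a fit with only the libraries compared.

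**Figure D2:**
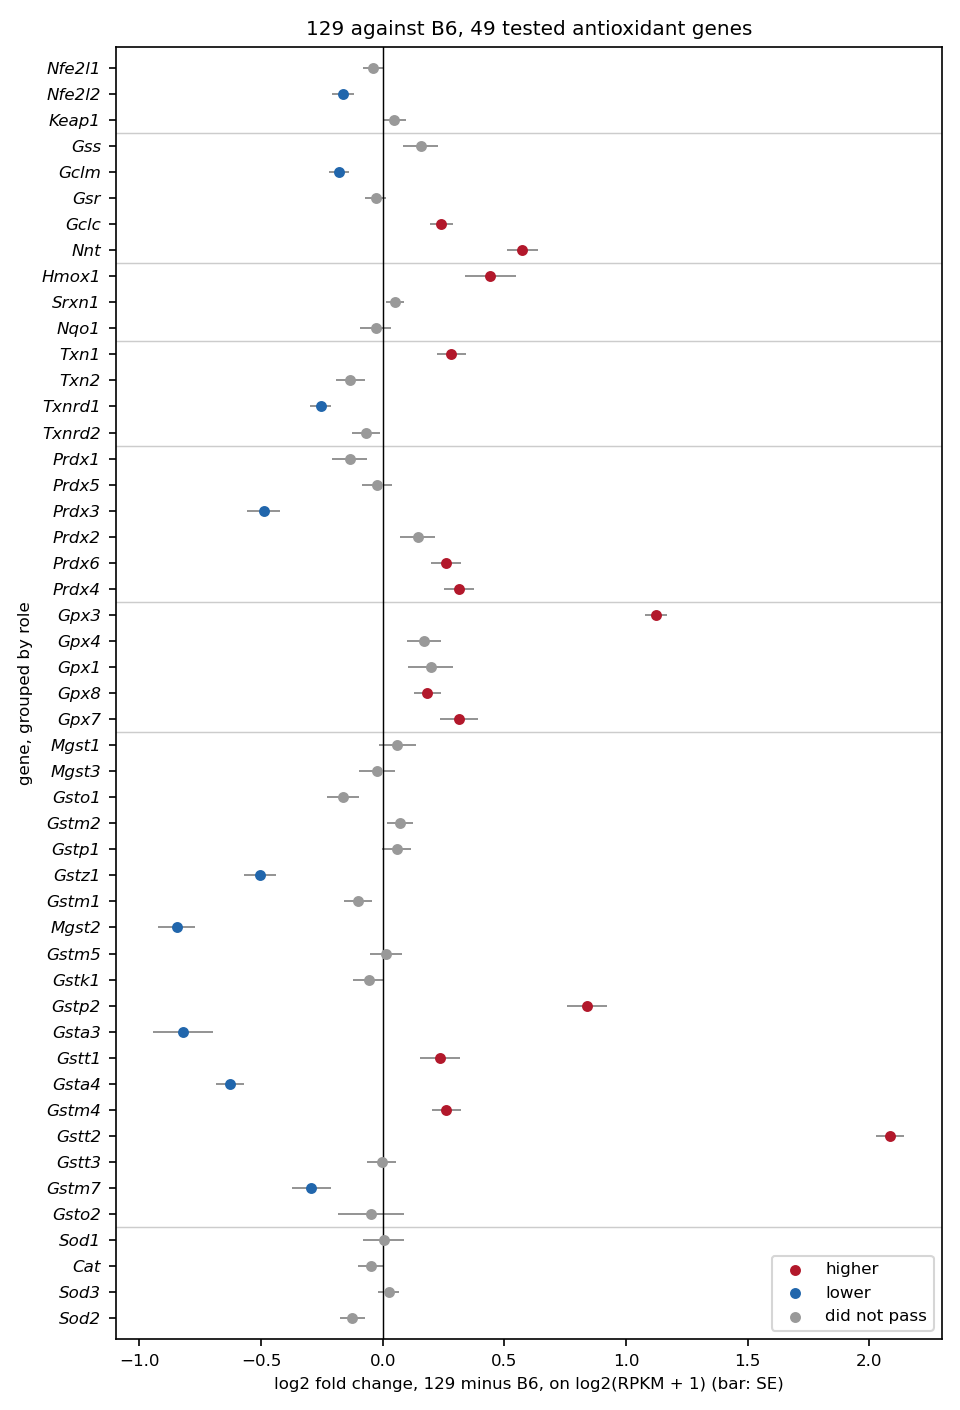
log2 fold change of 129 minus B6 for the 49 tested genes, grouped by role, with the standard error as a bar. Genes higher in 129 are red, genes lower in 129 are blue and those that did not pass are grey, with Gstt2 at 2.08 and Gpx3 at 1.12 on the right and Mgst2 at -0.85 on the left.

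The regulators of the response differed little between the groups. Nfe2l2, which encodes NRF2, had 41.6, 39 and 39.4 RPKM in F1, 39.6, 37.1 and 37.4 RPKM in 129, and 41.3, 43.8 and 43 RPKM in B6. The 129 and B6 libraries did not overlap, and F1 lay between them and overlapped both. Nfe2l2 was lower in 129 than in B6 (limma log2 fold change -0.16, SE 0.04, adjusted p = 0.013), a call lost without 129 replicate 2 or 3 (-0.15), and F1 passed against neither parent (adjusted p = 0.134 against B6 and adjusted p = 0.26 against 129). An exact two-sided permutation test gave p = 0.1 for 129 against B6, the smallest that 3 libraries against 3 allow. Keap1, the inhibitor of NRF2, had 16.5, 17 and 16.4 RPKM in F1, 15.5, 17.4 and 17.1 RPKM in 129, and 16.1, 16.1 and 15.9 RPKM in B6. Its groups overlapped and no comparison passed (adjusted p = 0.448 for 129 against B6). Nfe2l1, which encodes NRF1, a relative of NRF2 that controls proteasome and basal antioxidant genes, had 111, 117 and 119.6 RPKM in F1, 122, 124 and 120.5 RPKM in 129, and 126, 124 and 127 RPKM in B6. It passed only in F1 against B6, as lower (limma log2 fold change -0.12, SE 0.04, adjusted p = 0.0477). That call was lost without F1 replicate 1 or 2, 129 replicate 1, 2 or 3, or B6 replicate 1, 2 or 3 (-0.13 to -0.09), with rescaling, with the higher filter, with voom and with only the libraries compared, and its log2 fold change was -0.07 with rescaling.

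Nnt showed the largest difference among the genes of NADPH and glutathione supply. This transhydrogenase of the inner mitochondrial membrane (chromosome 13, 120123124 to 120197945 in mm9, minus strand, 17 exon intervals) had 1.72, 1.99 and 1.85 RPKM in F1, 3.5, 3.24 and 3.28 RPKM in 129, and 1.86, 1.79 and 2.11 RPKM in B6. All 129 libraries were above all F1 and B6 libraries, and F1 overlapped B6. Nnt was higher in 129 than in B6 (limma log2 fold change 0.57, SE 0.06, adjusted p = 4.48e-05), at 1.74 times the B6 mean. In F1 it was lower than in 129 (limma log2 fold change -0.61, SE 0.06, adjusted p = 7.44e-05) and did not pass against B6 (-0.03, adjusted p = 0.735). The exact two-sided permutation p was 0.1 for 129 against B6 and for F1 against 129, the smallest possible, and 0.6 for F1 against B6. The B6 value was not 0: 658 reads over the 3 B6 libraries fell on Nnt, beside 1269 in F1 and 1201 in 129. The deposited value is 1 sum over the exon intervals annotated on mm9, a C57BL/6J assembly, and gives no reads by exon, so the exons deleted in C57BL/6J cannot be read from it.

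The subunits of glutamate-cysteine ligase moved in opposite directions in 129. Gclc, the catalytic subunit, had 9.03, 8.06 and 8.47 RPKM in F1, 8.67, 8.64 and 8.75 RPKM in 129, and 7.28, 7.46 and 6.86 RPKM in B6. It was higher in 129 than in B6 (limma log2 fold change 0.24, SE 0.05, adjusted p = 0.00284) and in F1 than in B6 (0.21, adjusted p = 0.00753), with no overlap with B6 in either case. Gclm, the modifier subunit, had 20.9, 20.8 and 21.1 RPKM in F1, 19.1, 18.2 and 19.1 RPKM in 129, and 21.1, 22.4 and 20.9 RPKM in B6. It was lower in 129 than in B6 (limma log2 fold change -0.18, SE 0.04, adjusted p = 0.00516) and higher in F1 than in 129 (0.15, adjusted p = 0.0194), where the call was lost without F1 replicate 3 or 129 replicate 2 (0.13 to 0.14). Gss and Gsr passed in no comparison. Gss had 26.1 ± 2.91 RPKM in F1, 28.6 ± 1.49 RPKM in 129, and 25.6 ± 0.963 RPKM in B6 and Gsr had 15.5 ± 0.506 RPKM in F1, 16.4 ± 0.615 RPKM in 129, and 16.7 ± 0.518 RPKM in B6 (SD, n = 3 each).

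Of the stress-induced enzymes, Hmox1 was higher and Nqo1 lower in F1 than in B6. Hmox1, heme oxygenase 1, which breaks down heme to biliverdin, iron and carbon monoxide, had 217, 206 and 198 RPKM in F1, 150.2, 162 and 154 RPKM in 129, and 105, 141 and 100.3 RPKM in B6. The 3 groups did not overlap, with F1 above 129 and 129 above B6, and B6 replicate 2 stood above the other B6 libraries. The log2 fold change was 0.85 in F1 against B6 (limma, SE 0.11, adjusted p = 0.000201) and 0.44 in 129 against B6 (adjusted p = 0.00755). In F1 against 129 it was 0.41, adjusted p = 0.0158, a call lost without F1 replicate 1 or 129 replicate 1 (0.38 to 0.39). Macrophages express Hmox1 strongly. Of 10 macrophage markers measured, 9 were tested, none differed in F1 against B6 and 3 were lower in 129 than in B6. Their summed level was 40.21 to 59.93 RPKM in F1, 22.48 to 49.33 in 129 and 46.77 to 58.77 in B6. The summed thermogenic and mature adipocyte markers given above had the order of Hmox1, but not every marker had it. Fabp4 made up most of the mature adipocyte sum, with 29620 to 32250 RPKM in F1, 25460 to 27780 in 129 and 21330 to 24850 in B6. Of the 10 mature adipocyte markers, 3 were higher and 1 lower in F1 against B6, and 1 was higher and 3 lower in 129 against B6. Of the 8 thermogenic markers, 4 were higher and 2 lower in F1 against B6, and 2 were higher and 3 lower in 129 against B6. The part of these marker sets in the Hmox1 difference was not tested. As in any bulk sample, fewer cells of a type and less RNA per cell cannot be told apart.

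Nqo1, the quinone reductase often read as an indicator of NRF2 activity, was near the low end of expression with 2.13, 2.22 and 2.01 RPKM in F1, 2.79, 2.35 and 2.8 RPKM in 129, and 2.86, 2.56 and 2.73 RPKM in B6. The F1 libraries were below all 129 and B6 libraries, which overlapped each other. It was lower in F1 than in B6 (limma log2 fold change -0.25, SE 0.06, adjusted p = 0.0139), a call lost without F1 replicate 3 or B6 replicate 1 (-0.23 to -0.22). In F1 against 129 it was -0.22, adjusted p = 0.0271, lost without F1 replicate 1 or 3 or 129 replicate 1 or 3 (-0.23 to -0.19) and with no filter, and 129 did not pass against B6 (-0.03, adjusted p = 0.76). Srxn1, the sulfiredoxin that repairs over-oxidised peroxiredoxins, had 35.2 ± 0.971 RPKM in F1, 35.7 ± 0.329 RPKM in 129, and 34.4 ± 0.766 RPKM in B6 (SD, n = 3 each) and passed in no comparison. Hmox1 and Nqo1, both textbook targets of NRF2, thus went in opposite directions in F1 against B6.

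The thioredoxin system differed by compartment and by partner. Txn1, the cytosolic thioredoxin, had 160.3, 147 and 137 RPKM in F1, 148, 151 and 160.2 RPKM in 129, and 126, 122 and 129 RPKM in B6. It was higher than in B6 both in 129 (limma log2 fold change 0.28, SE 0.06, adjusted p = 0.0038) and in F1 (0.23, adjusted p = 0.0143), with no overlap. Txnrd1, the cytosolic reductase that recharges it, had 16.2, 15.7 and 15.9 RPKM in F1, 17.4, 16.4 and 16.9 RPKM in 129, and 20.1, 19.6 and 21.4 RPKM in B6. All B6 libraries were above all others, and Txnrd1 was lower than in B6 both in 129 (limma log2 fold change -0.26, SE 0.04, adjusted p = 0.000856) and in F1 (-0.34, adjusted p = 0.000246). The cytosolic thioredoxin and its reductase therefore had opposite signs against B6 in both groups. Mitochondrial Txn2 had 146 ± 10.1 RPKM in F1, 132 ± 2.83 RPKM in 129, and 145 ± 9.64 RPKM in B6 (SD, n = 3 each) and passed in no comparison. Its reductase Txnrd2 had 17.6, 15.2 and 15.5 RPKM in F1, 12.7, 12.3 and 12.8 RPKM in 129, and 13.3, 12.6 and 13.9 RPKM in B6. F1 was above both parents, which overlapped, and passed against B6 (0.26, adjusted p = 0.00597) and 129 (0.33, adjusted p = 0.00184). Whether reads were counted by strand is not given in the sources used here, and the Txnrd2 values are uncertain for that reason.

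Peroxiredoxins, which reduce peroxides with electrons from thioredoxin, were among the more abundant of these genes. Prdx3, a mitochondrial form, had 400.1, 345 and 352 RPKM in F1, 310.2, 293 and 312 RPKM in 129, and 443, 397 and 447 RPKM in B6. All B6 libraries except replicate 2, which was below F1 replicate 1, were above all F1 libraries, and 129 was below both. Prdx3 was lower in 129 than in B6 (limma log2 fold change -0.49, SE 0.07, adjusted p = 0.000253). It was lower in F1 than in B6 (-0.23, adjusted p = 0.0265) and higher in F1 than in 129 (0.26, adjusted p = 0.0188). The F1 against B6 call was lost without F1 replicate 2 or 3 or B6 replicate 1 or 3 (-0.21 to -0.19), with rescaling, with no filter and with only the libraries compared, and the F1 against 129 call was lost without F1 replicate 1 or 129 replicate 2 (0.19 to 0.23). The other tested peroxiredoxins were higher in 129 than in B6 or did not pass there. Prdx4, the form of the endoplasmic reticulum, had 43.3, 48.4 and 41.2 RPKM in F1, 48.6, 49.3 and 52.3 RPKM in 129, and 41.3, 41.2 and 37.9 RPKM in B6, and it was higher in 129 than in B6 without overlap (0.31, adjusted p = 0.0024). Prdx6, which uses glutathione, was higher than in B6 both in 129 (0.26, adjusted p = 0.00727) and in F1 (0.28, adjusted p = 0.00595), with 169 ± 14.9 RPKM in F1, 166 ± 6.21 RPKM in 129, and 138 ± 4.36 RPKM in B6 (SD, n = 3 each). Prdx1, a cytosolic form, passed only in F1 against B6 (-0.25, adjusted p = 0.023), a call lost without F1 replicate 2 or 3 or B6 replicate 1 or 3 (-0.23 to -0.21) and with no filter. Prdx2 and Prdx5 passed in no comparison.

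Gpx3, the secreted glutathione peroxidase of plasma, which adipose tissue also makes, had, next to Gstt2, the largest log2 fold change in 129 against B6. It lies on chromosome 11, 54716356 to 54723884 in mm9, plus strand, and had 491, 493 and 467 RPKM in F1, 702, 716 and 706 RPKM in 129, and 327, 316 and 330.4 RPKM in B6. The groups did not overlap, with 129 highest, F1 between and B6 lowest. Gpx3 was higher in 129 than in B6 (limma log2 fold change 1.12, SE 0.05, adjusted p = 2.71e-08), at 2.18 times the B6 mean. It was higher in F1 than in B6 (0.57, adjusted p = 1.32e-05) and lower in F1 than in 129 (-0.55, adjusted p = 1.7e-05). The 7 mast cell markers summed to 25.49 to 31.82 RPKM in F1, 54.01 to 62.53 in 129 and 2.396 to 2.746 in B6. Nearly all of the F1 and 129 sums came from Tpsab1, at 23.23 to 29.87 RPKM in F1, 51.94 to 61.1 in 129 and at most 0.0624 in B6, whereas Cpa3, the other tested marker, was highest in B6 at 1.786 to 2.113 RPKM in F1, 1.378 to 1.967 in 129 and 2.195 to 2.504 in B6. The other 5 were below 1 RPKM in all libraries, with Tpsb2 and Ms4a2 at 0 in all, and the part of these markers in the result was not tested.

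The other glutathione peroxidases differed less. Gpx4, which reduces lipid peroxides in membranes and restrains ferroptosis, had 515, 446 and 432 RPKM in F1, 402, 412 and 448 RPKM in 129, and 373, 369 and 379 RPKM in B6. F1 and 129 overlapped, and all of their libraries were above those of B6. Gpx4 was higher in F1 than in B6 (limma log2 fold change 0.31, SE 0.07, adjusted p = 0.00761), while 129 against B6 did not pass (0.17, adjusted p = 0.0823). It passed there with rescaling (0.20), with only the libraries compared and without F1 replicate 1 (0.17 in both). Of the 50-base stretches in its transcript, 61.7% also occur in other annotated genes, so reads may be shared with copies. Gpx1, the most widespread cytosolic form, was lower in F1 than in 129 (-0.35, adjusted p = 0.0182), a call lost without F1 replicate 3 or 129 replicate 2 or 3 (-0.35 to -0.27). Gpx7 and Gpx8, which act in the endoplasmic reticulum as Prdx4 does, were both higher in 129. Gpx7 had 11.7, 13.4 and 11.1 RPKM in F1, 15.8, 15.6 and 17.7 RPKM in 129, and 12.6, 14.3 and 12.1 RPKM in B6, and Gpx8 had 54.1, 49.8 and 49.1 RPKM in F1, 68, 61.6 and 60.8 RPKM in 129, and 57.5, 55.1 and 54.5 RPKM in B6. In 129 against B6 the log2 fold change was 0.31, adjusted p = 0.0104 for Gpx7 and 0.18, adjusted p = 0.0222 for Gpx8, whose call was lost without 129 replicate 1 or B6 replicate 3 (0.13 to 0.17). In F1 against 129 they were -0.41, adjusted p = 0.00361 and -0.31, adjusted p = 0.00208. The 3 endoplasmic reticulum peroxidases were set side by side after their values were seen. Progenitor and fibroblast markers, of which 8 of 9 were tested and 4 were higher and 1 lower in 129 against B6, summed to 1376 to 1603 RPKM in F1, 1737 to 1888 in 129 and 1319 to 1528 in B6. Col1a1 was the largest part of the sum, at 904.6 to 1058 RPKM in F1, 1094 to 1247 in 129 and 694.5 to 865.7 in B6. Ly6a, the next largest, was highest in B6, at 252.9 to 335.1 RPKM in F1, 334.1 to 345.6 in 129 and 362 to 498.1 in B6. The sum was highest in 129, as Gpx7, Gpx8 and Nnt were, and the part of these markers in those results was not tested.

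Glutathione transferases were the largest family, with 24 genes of which 19 were tested. In 129 against B6, 4 were higher, 5 lower and 10 did not pass, beside 15.9% higher and 21.7% lower over all tested genes. In F1 against B6, 3 were higher and 7 lower, beside 11% and 20.2% of all tested genes. In F1 against 129, 0 were higher and 4 lower, beside 12% and 15.7%.

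The theta class lies in a cluster on chromosome 10 (75236867 to 75297626 in mm9). Gstt2 had the largest fold change of all the genes described here, with 10.4, 10.6 and 9.57 RPKM in F1, 14.9, 15.8 and 17.4 RPKM in 129, and 3.07, 3.05 and 2.9 RPKM in B6. The groups did not overlap, with 129 highest and B6 lowest. Gstt2 was higher in 129 than in B6 (limma log2 fold change 2.08, SE 0.06, adjusted p = 1.65e-09), at 5.33 times the B6 mean, higher in F1 than in B6 (1.48, adjusted p = 8.59e-08), and lower in F1 than in 129 (-0.60, adjusted p = 5.06e-05). Its neighbour Gstt1 had 10.6, 9.01 and 8.06 RPKM in F1, 13.3, 13.4 and 13.8 RPKM in 129, and 11.8, 10.3 and 11.9 RPKM in B6. The 129 libraries were above the B6 libraries, and F1 was lowest but overlapped B6. Gstt1 was lower in F1 than in 129 (limma log2 fold change -0.51, SE 0.08, adjusted p = 0.00136). Its calls against B6 were less firm. That for 129 (0.24, adjusted p = 0.0477) was lost without F1 replicate 2, 129 replicate 1, 2 or 3, or B6 replicate 1, 2 or 3 (0.17 to 0.27), with the smaller pseudocount, with no filter and with voom, and that for F1 (-0.28, adjusted p = 0.0296) was lost without F1 replicate 2 or 3 or B6 replicate 1 or 3 (-0.26 to -0.19), with rescaling, with no filter and with only the libraries compared. Gstt3 had 3.63, 3.58 and 3.43 RPKM in F1, 4.31, 4.65 and 4.75 RPKM in 129, and 5.04, 4.24 and 4.5 RPKM in B6. It was lower in F1 than in B6 (-0.30, adjusted p = 0.00413) and in 129 (-0.29, adjusted p = 0.00513), and 129 did not pass against B6 (adjusted p = 0.963). Gstt4, in the same cluster, had too few reads to be tested, 16 in F1, 6 in 129 and 8 in B6. Within this cluster, then, 129 against B6 gave a large rise, a small rise and no change past the threshold.

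The pi class pair lies on chromosome 19 (4035411 to 4042221 in mm9). Gstp1, the abundant form, had 93.5 ± 6.11 RPKM in F1, 99.8 ± 3.41 RPKM in 129, and 96 ± 5.54 RPKM in B6 (SD, n = 3 each) and passed in no comparison. Gstp2 had 15.1, 12.4 and 14.3 RPKM in F1, 14.6, 16.7 and 16.8 RPKM in 129, and 9.07, 8.9 and 7.65 RPKM in B6. F1 and 129 overlapped and both were above all B6 libraries. Gstp2 was higher in 129 than in B6 (limma log2 fold change 0.84, SE 0.08, adjusted p = 1.92e-05) and in F1 than in B6 (0.65, adjusted p = 0.000233). Of the 50-base stretches of its transcript, 72.6% occur in other genes, 64.3% in Gstp1, so how reads were divided between the pair is uncertain.

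Mgst2, Gsta4 and Gsta3 were lower in 129 and in F1 than in B6. Mgst2, a membrane enzyme that makes leukotriene C4, had 23.6, 21.8 and 21.5 RPKM in F1, 22.6, 19.6 and 19.5 RPKM in 129, and 41.8, 34.5 and 37.2 RPKM in B6. Its B6 libraries were above all others, and F1 overlapped 129. Mgst2 was lower than in B6 in 129 (limma log2 fold change -0.85, SE 0.08, adjusted p = 9.93e-06) and in F1 (-0.73, adjusted p = 6.42e-05). Gsta4, the transferase with a preference for 4-hydroxynonenal, an aldehyde from oxidised lipids, had 9.76, 8.93 and 9.68 RPKM in F1, 8.12, 8.21 and 9.47 RPKM in 129, and 13.9, 13.5 and 14 RPKM in B6. It showed the same order, lower than in B6 in 129 (limma log2 fold change -0.63, SE 0.06, adjusted p = 1.29e-05) and in F1 (-0.50, adjusted p = 0.00013). Gsta3 had 11, 9.18 and 8.05 RPKM in F1, 8.67, 8.75 and 9.27 RPKM in 129, and 17, 13.5 and 19.5 RPKM in B6. Its B6 libraries were all above the others but spread widely, and it was lower in 129 (limma log2 fold change -0.82, SE 0.12, adjusted p = 0.000394) and in F1 (-0.76, adjusted p = 0.00114). No 50-base stretch of Mgst2, Gsta3 or Gsta4 occurs in another annotated gene. Endothelial markers were also highest in B6, with sums of 5.208 to 5.378 RPKM in F1, 3.19 to 4.172 in 129 and 6.548 to 7.601 in B6. Of these 7 markers 4 were below 1 RPKM in all libraries, and their part in these results was not tested. Mgst1 and Mgst3, by far the most abundant transferases, passed in no comparison, with 804 ± 73 RPKM in F1, 922 ± 38.8 RPKM in 129, and 886 ± 56.8 RPKM in B6 for Mgst1 and 504 ± 49.6 RPKM in F1, 441 ± 27 RPKM in 129, and 448 ± 21.5 RPKM in B6 for Mgst3 (SD, n = 3 each).

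Gstz1, the zeta class enzyme that isomerises maleylacetoacetate in tyrosine breakdown, had 96, 81.5 and 86.5 RPKM in F1, 78.2, 73.5 and 79.1 RPKM in 129, and 111, 102 and 116 RPKM in B6. The B6 libraries were above all others. It was lower in 129 than in B6 (limma log2 fold change -0.50, SE 0.07, adjusted p = 0.000169) and in F1 than in B6 (-0.31, adjusted p = 0.00528), while F1 against 129 missed the threshold (0.19, adjusted p = 0.0588) and passed with rescaling (0.20), with voom, with only the libraries compared and without B6 replicate 2 (0.19 in each), and without F1 replicate 2 (0.24). Of its 2108 exon bases, 476 overlap Pomt2 on the opposite strand, which had a mean level of 3.94 RPKM. Without a stated strand setting, reads of that stretch cannot be assigned either. In the mu class cluster on chromosome 3 (107698772 to 107847777 in mm9), 5 of 7 genes were tested. Gstm4 was higher in 129 than in B6 (0.26, adjusted p = 0.00584) and in F1 (0.19, adjusted p = 0.0334), the F1 call lost without F1 replicate 1 or 2 or B6 replicate 1 or 3 (0.14 to 0.19), with no filter and with only the libraries compared. Gstm7, at 1.58 to 2.96 RPKM, was lower in 129 than in B6 (-0.29, adjusted p = 0.0133), a call lost without B6 replicate 1 (-0.23), and in F1 than in B6 (-0.45, adjusted p = 0.00162; -0.69 with voom). Gstm2 was lower in F1 than in 129 (-0.16, adjusted p = 0.0418), a call lost without F1 replicate 2 or 3, 129 replicate 1, 2 or 3, or B6 replicate 1 (-0.19 to -0.13), with rescaling and with no filter. The abundant Gstm1, with Gstm5, Gstk1, Gsto1 and Gsto2, passed in no comparison.

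**Figure D3:**
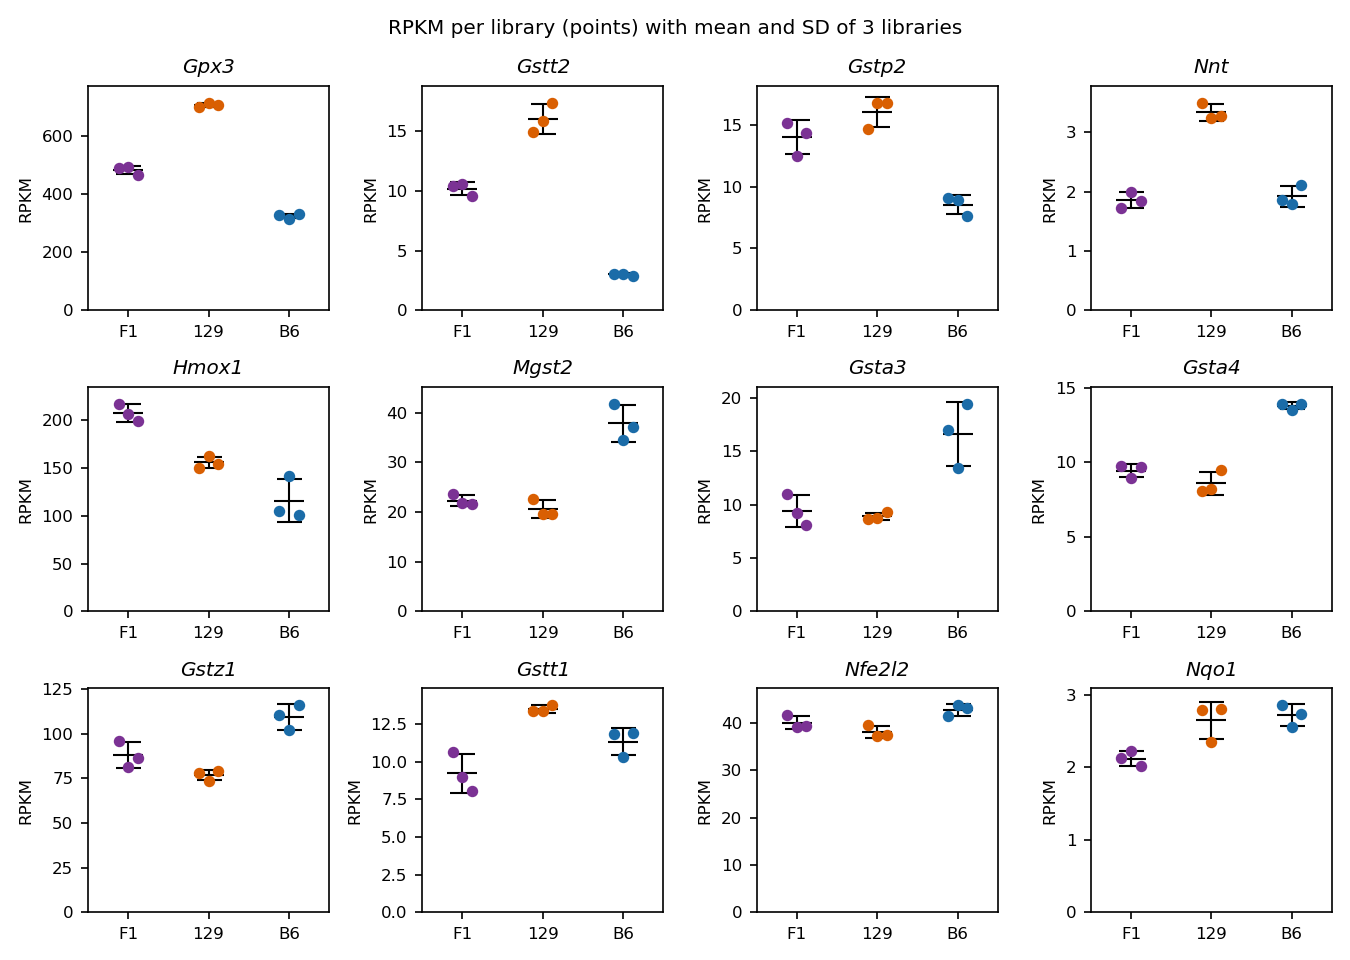
RPKM in each of the 9 libraries (points) with the mean and SD of each group of 3, for 12 of the genes, each on its own axis from 0. Nnt in F1 sits with B6, Mgst2, Gsta3 and Gsta4 in F1 sit with 129, Gpx3 and Gstt2 in F1 lie between the parents, and Hmox1 in F1 lies above both.

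Superoxide dismutases and catalase, which act on superoxide and hydrogen peroxide, gave 4 tested genes, none of which passed in 129 against B6. Sod1, the cytosolic enzyme, had 829, 852 and 781 RPKM in F1, 904, 877 and 969.6 RPKM in 129, and 941, 803 and 1009 RPKM in B6, with overlapping groups. In F1 against B6 it passed only without B6 replicate 2 (-0.25). Cat, the peroxisomal catalase, had 305 ± 11.7 RPKM in F1, 318 ± 14.3 RPKM in 129, and 329 ± 15.4 RPKM in B6 (SD, n = 3 each) and passed in no comparison. Sod2, the mitochondrial enzyme, had 84.8, 85.6 and 82.9 RPKM in F1, 73.4, 73.9 and 76.3 RPKM in 129, and 83.5, 75 and 85.9 RPKM in B6. It was higher in F1 than in 129 (limma log2 fold change 0.18, SE 0.05, adjusted p = 0.026), a call lost without F1 replicate 1 or 2 or 129 replicate 1 or 2 (0.17), and in 129 against B6 (-0.12, adjusted p = 0.08) it passed without B6 replicate 2 (-0.18). Sod3, the extracellular enzyme, had 64, 71 and 65.7 RPKM in F1, 89.2, 90.3 and 89.5 RPKM in 129, and 88.4, 86.9 and 89.2 RPKM in B6. All F1 libraries were below all parental ones, and the 129 and B6 ranges nearly touched. Sod3 was lower in F1 than in B6 (limma log2 fold change -0.39, SE 0.04, adjusted p = 9.88e-05) and than in 129 (limma log2 fold change -0.42, SE 0.04, adjusted p = 7.39e-05). Smooth muscle markers, of which 5 of 6 were tested, summed to 99.98 to 106.4 RPKM in F1, 128.1 to 137.1 in 129 and 128.9 to 144 in B6. Acta2 and Tagln made up most of the sum. Of the 5 tested markers, 5 were lower in F1 against B6, while in F1 against 129 2 were lower and 3 did not pass. In 129 against B6, 3 were lower and 2 did not pass. Myh11, Cnn1 and Actg2 had all B6 libraries above all others, and their F1 and 129 libraries overlapped. Myh11, for example, had 1.287 to 1.603 RPKM in F1, 1.393 to 1.698 in 129 and 3.176 to 4.451 in B6. The sum, though not every marker, was lowest in F1 apart from both parents, as Sod3 and Nqo1 were. The part of these markers in those results was not tested.

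F1 was then set against the mid-parent value, taken halfway between the parents on the log2 scale, which is what additive inheritance on that scale would give. Of the 49 genes 5 were higher than this value, 13 were lower and 31 did not pass, a share of 36.7% beside 23.2% of all tested genes (8.35% higher and 14.8% lower). The split became 10 higher and 11 lower with rescaling. Against the mean of the parental RPKM, 3 were higher and 13 lower, beside 23.7% of all tested genes called, an alternative chosen after seeing the data. Here and below that mean was taken on RPKM + 1, from the group means of log2(RPKM + 1). The median of the 49 was -0.02, beside -0.03 over all tested genes, and only Hmox1 passed with an absolute log2 difference of at least 0.5, which 1.96% of all tested genes did.

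Hmox1 was 0.63 above the mid-parent value (limma, SE 0.09, adjusted p = 0.000944), Txnrd2 0.30 above it (adjusted p = 0.00213) and Gpx4 0.22 above it (adjusted p = 0.0241). The Gpx4 call was lost without F1 replicate 1 or 129 replicate 1 or 2 (0.15 to 0.22) and with no filter. Gstt2 was 0.44 above it (adjusted p = 0.000286) but only 0.09 above the mean of the parental RPKM (adjusted p = 0.261). Gstp2 passed as higher (0.23, adjusted p = 0.0414), a call lost without F1 replicate 1 or 3, 129 replicate 1 or 2, or B6 replicate 3 (0.17 to 0.24), with no filter and against the mean of the parental RPKM. Hmox1 and Txnrd2 were thus above both parental means, whereas Gstt2 lay between them.

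Lower than the mid-parent value were Sod3 (limma log2 fold change -0.41, SE 0.04, adjusted p = 8.35e-05), Gstt1 (-0.39, adjusted p = 0.00369), Nnt (-0.32, adjusted p = 0.00249), Mgst2 (-0.31, adjusted p = 0.00692), Gstm7 (-0.31, adjusted p = 0.00888; -0.47 with voom) and Gstt3 (-0.29, adjusted p = 0.00306). Nqo1 (-0.24, adjusted p = 0.0124), Gpx8 (-0.22, adjusted p = 0.00806) and Txnrd1 (-0.21, adjusted p = 0.00321) were lower by less. Nqo1 was lost without F1 replicate 3 (-0.21). Calls for Gsta3 (-0.35, adjusted p = 0.04), Gpx7 (-0.25, adjusted p = 0.0243), Gpx1 (-0.25, adjusted p = 0.0469) and Gsta4 (-0.19, adjusted p = 0.0225) did not hold in every setting. That for Gsta3 was lost without F1 replicate 2 or 3, 129 replicate 1, 2 or 3, or B6 replicate 1 or 3 (-0.35 to -0.25), with rescaling and with no filter, and that for Gpx7 was lost without F1 replicate 1 or 3 (-0.24 to -0.20) and with no filter. That for Gpx1 was lost without F1 replicate 1 or 3, 129 replicate 2 or 3, or B6 replicate 1 or 3 (-0.27 to -0.17), with rescaling and with no filter, and that for Gsta4 was lost without F1 replicate 2 or 3 (-0.20 to -0.15). Among these genes Sod3, Gstm7, Gstt3, Nqo1, Gpx8 and Txnrd1 had F1 libraries below all libraries of both parents, while Nnt and Mgst2 in F1 overlapped the parent with the lower level. These genes were picked as lower in the same libraries, so the lack of overlap is no separate evidence. Its share over all tested genes was not counted. Gpx3 (0.01, adjusted p = 0.863) and Prdx3 (0.01, adjusted p = 0.907), which differed between the parents, did not pass. All F1 libraries were also the deeper ones, and the part of depth in these results was not tested.

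**Figure D4:**
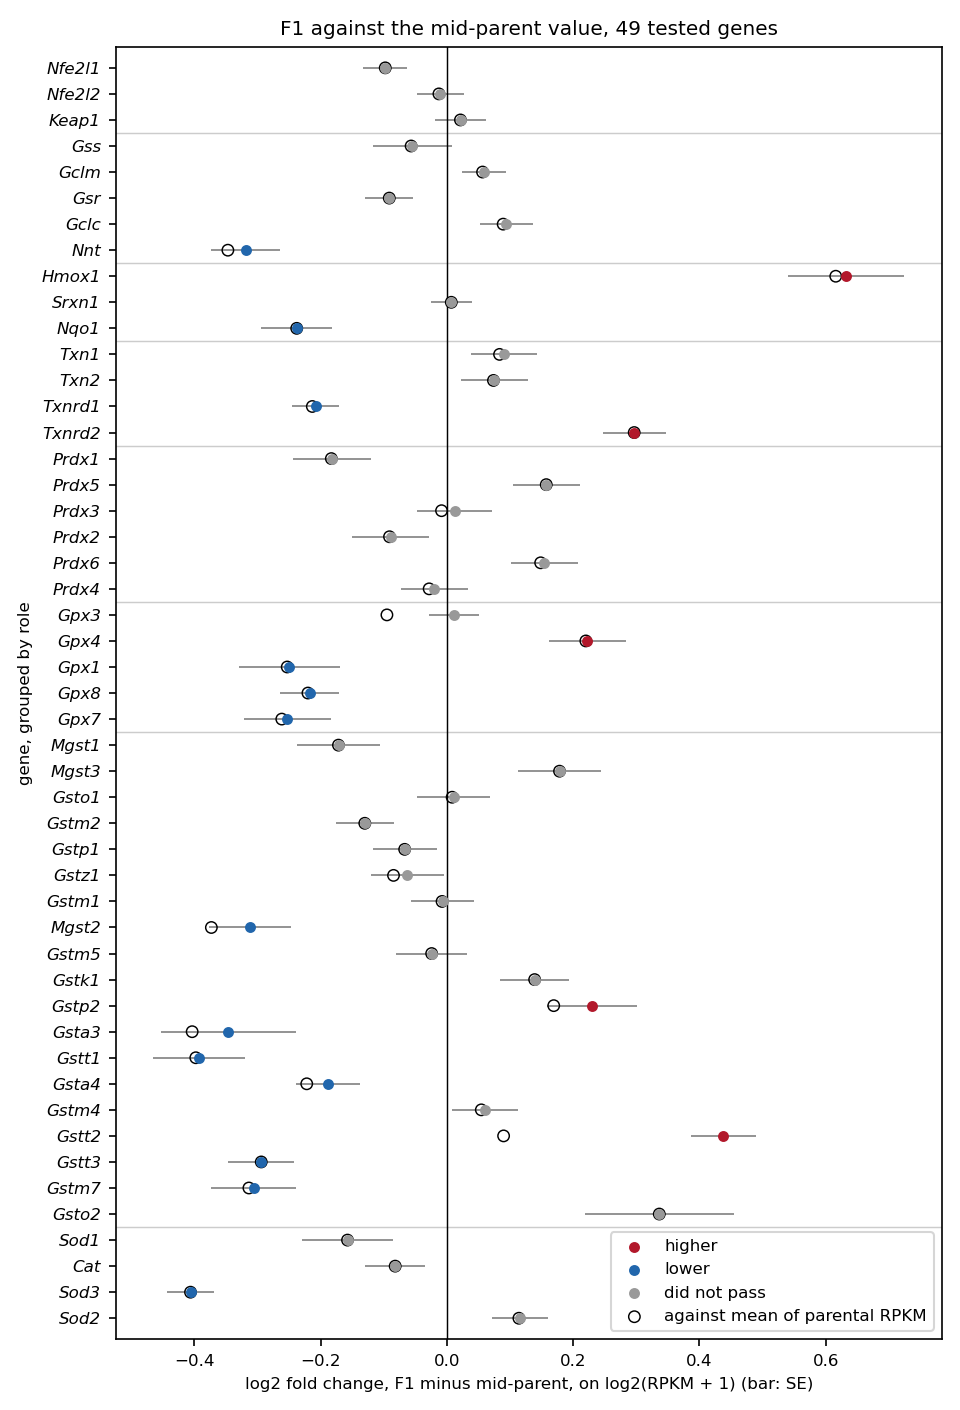
log2 difference between F1 and the mid-parent value for the 49 tested genes, with the standard error as a bar. Open circles give the difference from the mean of the parental RPKM, taken on RPKM + 1, where Gstt2 is at 0.09, beside 0.44 on the log2 scale. On that scale Hmox1 is the highest and Sod3 the lowest. As a plain ratio of F1 RPKM to the mean of the parental RPKM, Nnt was lowest at 0.705, beside 0.753 for Sod3.

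Genes of the same pathway outside the rule were read from lists chosen for their role. Among 23 tested NRF2 target genes not described above, 6 were higher and 4 lower in 129 than in B6, with a median log2 fold change of 0.01, beside -0.03 over all tested genes. The share called was 43.5%, beside 37.5% of all tested genes. The carbonyl reductases Cbr3 and Cbr1, which reduce reactive carbonyls, and the biliverdin reductase Blvrb, which acts after heme oxygenase, were higher, and Htatip2 was lower. Cbr3 had 22.5 ± 1.53 RPKM in F1, 38.7 ± 1.64 RPKM in 129, and 7.48 ± 0.459 RPKM in B6 (SD, n = 3 each; limma log2 fold change 2.23, SE 0.06, adjusted p = 9.85e-10). Cbr1 had 72.9 ± 3.46 RPKM in F1, 81 ± 3.78 RPKM in 129, and 46.2 ± 1.94 RPKM in B6 (SD, n = 3 each; log2 fold change 0.80, adjusted p = 9.54e-07). Blvrb was 0.75, adjusted p = 3.3e-06 and Htatip2 -0.87, adjusted p = 6.76e-06. The same list had 6 higher and 9 lower genes in F1 against B6 and 4 higher and 8 lower in F1 against 129, that is 65.2% and 52.2% called, beside 31.2% and 27.7% of all tested genes. It had 15 calls in F1 against B6, from 11 without B6 replicate 1 to 17 without B6 replicate 2, and 12 in F1 against 129, where the fit without 129 replicate 2 gave 8. The lists described below also varied in F1 against B6. Their share called ran from 21.4% for NRF2 partners to 55% for NADPH supply and 57.1% for glutaredoxin and repair genes. In F1 against 129 it ran from 7.14% for NRF2 partners to 40% for NADPH supply.

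The lists of supply and repair held calls in both directions in 129 against B6. In the order given here, the share called was 40%, 28.6% and 25%. Of all tested genes 37.5% were called (15.9% higher and 21.7% lower). Of 15 genes of glutathione uptake and turnover 3 were higher and 3 lower, with a median of -0.05, including the gamma-glutamyl transferase relative Ggt5 (0.75, adjusted p = 8.73e-06), the glyoxalase Hagh (-0.58, adjusted p = 8.1e-05), Ggt7 (-0.27, adjusted p = 0.00167) and the carrier Slc25a40 (0.21, adjusted p = 0.00519). Of 21 genes listed for glutaredoxin, thioredoxin-like and methionine sulfoxide repair roles 1 was higher, mitochondrial Glrx2 (0.37, adjusted p = 3.62e-05), and 5 were lower, with a median of -0.03. Among the lower were the sestrin Sesn1 (-0.34, adjusted p = 0.000578) and the methionine sulfoxide reductase Msrb1 (-0.49, adjusted p = 0.000156). Nme6 (-0.72, adjusted p = 0.000278) is counted there too, although it belongs to the nucleoside diphosphate kinase family. Of 20 genes of NADPH supply 4 were higher and 1 lower, with a median of -0.02, a total of 5 calls that fell to 3 without B6 replicate 1, 129 replicate 2 or 129 replicate 3. The mitochondrial folate enzymes Aldh1l2 (0.51, adjusted p = 0.00203) and Mthfd1l (0.48, adjusted p = 0.00607) were higher, and mitochondrial Idh2, another source of NADPH beside Nnt, was lower (-0.48, adjusted p = 4.55e-05). Idh2 had 57 ± 2.85 RPKM in F1, 33.8 ± 1.97 RPKM in 129, and 47.4 ± 1.34 RPKM in B6 (SD, n = 3 each), so its order was the reverse of that of Nnt for 129 and B6, with F1 above both. G6pdx, of the pentose phosphate pathway, passed as higher (0.15, adjusted p = 0.0387), a call lost without F1 replicate 3, 129 replicate 1, 2 or 3, or B6 replicate 1 or 2 (0.11 to 0.17) and with no filter.

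Of 14 partners and regulators of NRF2 3 were higher and 2 lower in 129 against B6, with a median of 0.02. That is 35.7% called, beside 37.5% of all tested genes. With each library left out in turn the 5 calls became 1 to 5, with 1 without 129 replicate 1 or 3. Bach1, a repressor that competes with NRF2 at the Hmox1 gene, had 4.43 ± 0.358 RPKM in F1, 5.9 ± 0.299 RPKM in 129, and 4.86 ± 0.328 RPKM in B6 (SD, n = 3 each). It was higher in 129 than in B6 (0.24, adjusted p = 0.0142), a call lost without 129 replicate 1 (0.21), and lower in F1 than in 129 (-0.34, adjusted p = 0.00276). Ngly1 (0.13, adjusted p = 0.0156) was lost without 129 replicate 3 or B6 replicate 3 (0.12), Nfe2l3 (0.34, adjusted p = 0.0373) was lost without 129 replicate 1, 2 or 3 or B6 replicate 1 or 3 (0.26 to 0.37), with no filter and with only the libraries compared, and Syvn1 (-0.15, adjusted p = 0.0341) was lost without 129 replicate 1 or 3 or B6 replicate 1 or 2 (-0.14 to -0.12) and with rescaling. At 0.964 RPKM in 129 and 0.567 RPKM in B6, Nfe2l3 had a log2 fold change of 0.74 with the smaller pseudocount and 0.91 with voom. Selenoprotein synthesis supplies the glutathione peroxidases and thioredoxin reductases that carry selenocysteine. Its list joined synthesis genes such as Sepsecs with selenoproteins such as Msrb1, Selt and Vimp. Of its 15 tested genes 2 were higher and 3 lower, with a median within 0.01 of 0, including Msrb1 above. The 5 calls, or 33.3% beside 37.5% of all tested genes, became 2 without B6 replicate 1 or 129 replicate 1. Selt (-0.19, adjusted p = 0.0181) was lost without 129 replicate 2 or 3 or B6 replicate 1 (-0.18 to -0.17), Sepsecs (0.21, adjusted p = 0.0134) was lost without 129 replicate 1 or B6 replicate 1 (0.18), and Vimp (0.20, adjusted p = 0.021) was lost without 129 replicate 1 or B6 replicate 2 or 3 (0.15 to 0.20).

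The genes were also read by their promoter letters. Of the 10 tested genes with the antioxidant response element core, 0 were higher and 5 lower in 129 than in B6, and of 31 tested genes with a promoter in the table but no match, 8 were higher and 3 lower. Gclc, Gsr, Gsta4, Gstt2, Hmox1, Nnt, Prdx6 and Sod3 were tested but had no promoter to search, so they are in neither count. Among them Gclc, Gstt2, Hmox1, Nnt and Prdx6 were higher in 129 than in B6, and Gsta4 was lower. The split is therefore incomplete for the genes higher in 129. Over all tested genes with a promoter, 22.9% of those with the core and 21.8% of those without it were lower in 129, and 15.31% and 15.27% were higher. In F1 against B6 the 10 genes had 0 higher and 4 lower, beside 6 higher and 7 lower of the 31 without a match and 10.72% higher and 20.44% lower of all tested genes with the core. In F1 against 129 they had 1 higher and 0 lower, beside 3 higher and 8 lower of the 31, and 11.32% higher and 15.11% lower of all tested genes with the core. The lower genes in 129 were the 5 whose promoters are printed above, Gclm, Gsta3, Gstm7, Nfe2l2 and Txnrd1. The calls of Gstm7 and Nfe2l2 were among those lost without a library, as given above.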

How the data were processed

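Poly(A) RNA of 3 F1, 3 129 and 3 B6 libraries was prepared with a stranded kit, per the labels' protocols. The deposited values were RPKM, computed by the authors for each gene and library. The submitters' processing notes name STAR and mm9, a C57BL/6J assembly. For the read counter, its strand setting, the annotation release, versions and filters, the sources used here name nothing. RPKM times exon length summed to 1000000 per library, and all non-zero rows gave whole reads (tolerance 0.1 read), from which depth was recovered. With 3 reads as a floor, this depth allows values down to 0.0562 reads per 1000000 in the deepest library and 0.157 in the shallowest, and it covers counting error only. Another 5 columns without a name, filled on 31 rows, were left out.

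A gene entered the fit when 3 or more of the 9 libraries reached 1 RPKM. Values were fitted as log2(RPKM + 1) with limma 3.58.1 (R 4.3.3), 1 mean per group and a mean-variance trend. All 9 libraries shared the spread. Two-sided p-values received Benjamini-Hochberg adjustment over 11542 genes, with 0.05 as the threshold. The procedure was tested on simulated data. The values named are those of members called with a log2 fold change of 0.5 or more in size in any comparison, of defining pathway genes such as Nfe2l2, Nqo1 and Sod1 whatever their values, and of the 4 genes of each list with the smallest p in 129 against B6. Other members are named with their call. The members and lists were chosen with earlier results of these data known. Shared sequence was read as 50-base stretches of GENCODE M21 transcripts, and promoters came from RefSeq on GRCm38.p6. Errors of RPKM are SD over 3 libraries. Replicate numbers did not pair the libraries.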

Additional observations from a re-analysis of the deposited data

How the results depend on the processing

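Counts of called members stayed within 1.5 times under all alternatives run. With each library left out in turn they were 20 to 25 for 129 against B6, 17 to 25 for F1 against B6, 11 to 20 for F1 against 129 and 13 to 23 for F1 against the mid-parent value, each highest without B6 replicate 2, the shallowest library. Over all genes these fits called 3466 to 4488, 2533 to 3663, 2183 to 3511 and 1806 to 3012. The other settings that tested the same 49 gave 21 to 24, 19 to 24, 16 to 21 and 16 to 24. With no filter, 57 were tested and 23, 20, 14 and 13 called, and with the higher filter, 45 were tested and 20, 20, 14 and 15 called. Held in every alternative were 18 of 22, 17 of 23, 9 of 16 and 10 of 18 calls. Cbr3, above the mid-parent value by 0.35 on the log2 scale, was at -0.0405 against the mean of the parental RPKM, where a mid-point between unequal parents is higher by construction. With the replicate number as a block, the 49 genes had 22, 24, 19 and 18 calls in the 4 comparisons, and over all genes 4267, 3546, 3066 and 2587. Among the genes named, calls lost with the block were Syvn1 in 129 against B6 (adjusted p = 0.0537, limma), Nfe2l1 in F1 against B6 (0.0677), and Gpx1 (0.0729), Gstp2 (0.0678) and Sesn1 (0.0575) against the mid-parent value, and calls gained were Gstz1 in F1 against 129 (0.0238) and Mthfd1l against the mid-parent value (0.0436). Deviations of same-numbered libraries correlated at -0.192 to 0.215, beside -0.203 to 0.231 for different numbers. Depth limits the 10 untested members, which had few or no reads in any group.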
